A study of Homo sapiens with 4 samples.

Results

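The collagen genes were compared between ATAD3A knockout (KO) and parental (WT) cells of HN12, an established line of head and neck squamous cell carcinoma (HNSCC). The genes were taken by name, as every symbol made of COL, a type number, the letter A and a chain number, which gave 42 of the 26726 genes in the deposited tables. RNA-seq had been performed on 4 libraries from independent cultures, KO1 and KO2 with the genotype ATAD3A knockout and WT1 and WT2 with the genotype WT. ATAD3A is an ATPase of the inner mitochondrial membrane, and the study asked how its loss changed gene expression in these cells. Both groups were untreated HN12 cultures in the same serum-containing medium. The KO cells had been made with CRISPR/Cas9 and 1 guide RNA in exon 6 of ATAD3A, selected with puromycin and grown out from single cells, and such a passage is not described for the WT cells. Which KO clone or clones gave the libraries is not given in the sources used here, so loss of ATAD3A and a difference between a clone and the parental population cannot be told apart.

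Collagens are proteins of the extracellular matrix in which alpha chains, made from 1 or several genes, wind into a triple helix. Fibrillar types build the fibers of connective tissue and are made mainly by fibroblasts. Squamous epithelial cells are known instead for type IV, the network of the basement membrane, for type VII, the anchoring fibril below it, and for type XVII, a transmembrane protein of the hemidesmosomes that hold basal keratinocytes on that membrane.

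The libraries held 18943547, 16805766, 15173766 and 13569971 counts on genes in KO1, KO2, WT1 and WT2. ATAD3A itself had 702 and 492 counts in KO1 and KO2 and 1802 and 1471 in WT1 and WT2, a log2 fold change of -1.70 (SE 0.091, adjusted p = 1.58e-17). Its transcript was therefore lower in both libraries labelled KO but still counted. For the KO clones that it kept for further work, the paper reports complete loss of the protein by Western blotting. All 8 epithelial markers examined were detected in the 4 libraries. The keratins KRT5, KRT14, KRT6A and KRT17 were higher in KO, and TP63, CDH1, EPCAM and DSP were lower. For E-cadherin, the protein made from CDH1, the paper reports higher levels in KO than in parental HN12 cells. Of the fibroblast markers, PDGFRA, FAP and THY1 had between 0 and 4 counts in each library, PDGFRB had between 8 and 32 and did not pass, and PDGFRL was lower in KO (log2 fold change -0.66). The summed level of the 8 of 10 fibroblast markers that were listed, COL1A1, COL1A2 and COL3A1 among them, was 4.50 and 4.65 in KO1 and KO2 and 6.06 and 6.30 in WT1 and WT2 in TMM-scaled RPKM, against 616 to 1744 for the epithelial markers. The endothelial markers CDH5, VWF and KDR had between 0 and 27 counts in each library. DCN, LUM and PECAM1 were not analysed here.

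Collagen messenger RNA took a larger share of the KO libraries. Of all counts on genes, 0.347% (95% Wilson interval 0.344 to 0.349) fell on collagen genes in KO1 and 0.367% (0.364 to 0.370) in KO2. The shares were 0.258% (0.255 to 0.261) in WT1 and 0.254% (0.251 to 0.256) in WT2, and these intervals cover counting error only. The KO and WT libraries did not overlap. More cells that make collagen and more collagen RNA per cell cannot be told apart in such bulk samples, and neither can fewer cells and less RNA where a gene is lower.

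COL17A1 alone accounted for 56.1% and 56.1% of the collagen counts in KO1 and KO2 and for 48.0% and 47.0% in WT1 and WT2. Without it, the other collagen genes still took 0.152% and 0.161% of the KO counts against 0.134% and 0.135% of the WT counts. Levels of genes are given below as TMM-scaled RPKM, that is CPM (counts scaled to the library total, here with factors by the trimmed mean of M values) per kilobase of gene length, so that genes can be compared with each other. On this scale 10 collagen genes had a mean over 10, 8 lay between 1 and 10, and 24 lay under 1. COL17A1 held 61.5% of the summed mean level in KO and 54.1% in WT, followed by COL4A2 with 5.93% and 7.15%. COL7A1 (4.06% and 5.61%) and COL12A1 (3.96% and 6.12%) came next, with COL7A1 ahead in KO and COL12A1 ahead in WT.

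A total of 23 collagen genes had enough counts to be tested, and the other 19 are given by their counts further below. With edgeR's quasi-likelihood test and Benjamini-Hochberg adjustment over 15104 genes, 12 collagen genes were higher in KO, 3 were lower and 8 did not pass an adjusted p of 0.05. Among all genes tested, 20.4% were called higher and 19.1% lower. When libraries were scaled by their totals only, 2508 of all genes were higher and 3615 lower in place of 3074 and 2891, or 16.6% and 23.9%, while the collagen genes stayed at 12 and 3. With DESeq2 the collagen genes numbered 11 higher and 1 lower, against 15.8% and 14.6% of all genes. The median log2 fold change was 0.33 over the collagen genes tested and -0.0042 over all genes tested. The libraries of KO lay above those of WT without overlap for 14 of the 23 and below them for 5, where the shares of all genes were 34.1% and 34.0%. At least a 2-fold rise with an adjusted p under 0.05 was found for 4 collagen genes, COL5A3, COL13A1, COL16A1 and COL6A2. The same held for 3.40% of all genes tested.

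**Figure D1:**
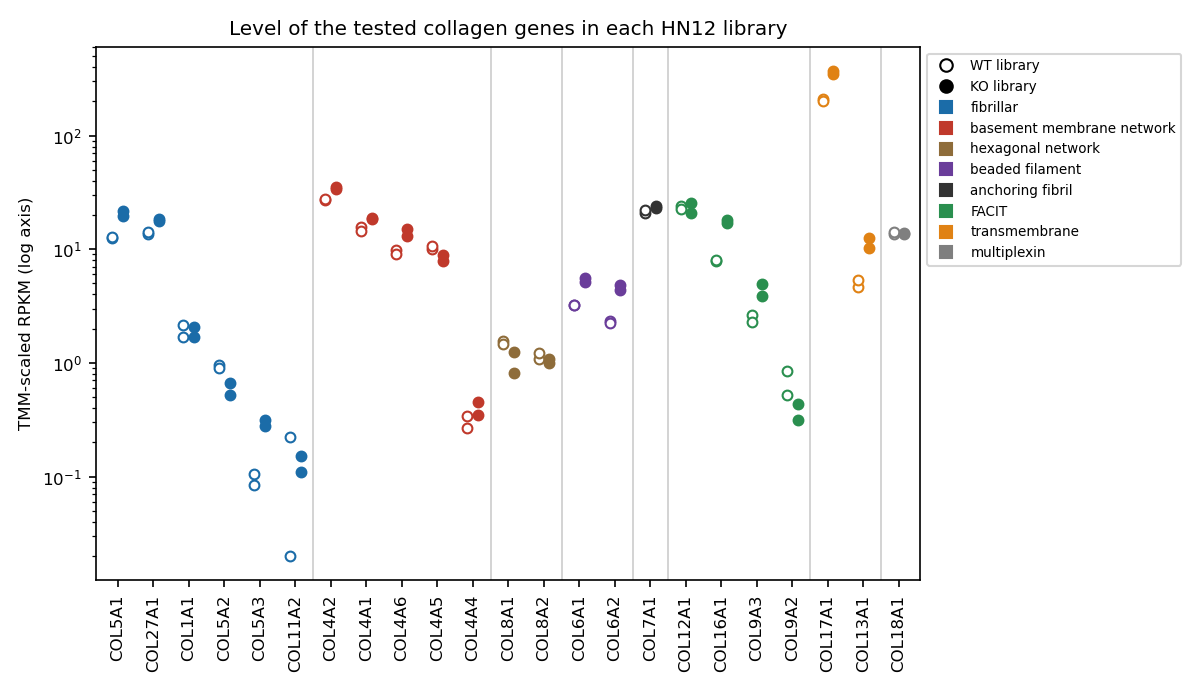
Level of each tested collagen gene as TMM-scaled RPKM (log axis), with open points for the 2 WT libraries, filled points for the 2 KO libraries, and colors and grey lines for the collagen classes. COL17A1 stands above the other genes at 203 to 368, and the KO points lie above the WT points for 14 of the 23 genes.

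Both tested members of the transmembrane class were called higher in KO. Among all genes tested 20.4% were called higher, and 37.2% of those with at least 55% GC, a range that holds both members. COL17A1 (ENSG00000065618, chromosome 10), the hemidesmosomal type XVII chain, measured 349 and 368 in KO1 and KO2 and 211 and 203 in WT1 and WT2. Each KO library was thus well above each WT library, with a 1.73-fold higher level (log2 fold change 0.79, 95% interval 0.70 to 0.89, adjusted p = 3.39e-16). Of the 8 epithelial markers, KRT5, KRT14, KRT6A and KRT17 moved in the same direction, with log2 fold changes of 2.63, 2.20, 2.76 and 0.94. TP63, CDH1, EPCAM and DSP moved against it, at -0.28, -0.24, -0.34 and -0.49, and the part of these markers in the COL17A1 result was not tested. COL13A1 (chromosome 10), type XIII of cell adhesion sites and the neuromuscular junction, measured 12.6 and 10.2 in KO1 and KO2 and 4.69 and 5.41 in WT1 and WT2. The difference was 2.26-fold (log2 fold change 1.18, interval 0.92 to 1.44, adjusted p = 1.51e-09), and the groups did not overlap. COL25A1, the remaining listed member, had too few counts to be tested.

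The RefSeq start-site window of COL17A1 is shown because this gene carries the most collagen counts. It covers 250 bases before and 50 bases after the annotated start at chr10:104085831-104086130 on the minus strand of GRCh38.p14, and capitals mark the motif TATAAA.
COL17A1: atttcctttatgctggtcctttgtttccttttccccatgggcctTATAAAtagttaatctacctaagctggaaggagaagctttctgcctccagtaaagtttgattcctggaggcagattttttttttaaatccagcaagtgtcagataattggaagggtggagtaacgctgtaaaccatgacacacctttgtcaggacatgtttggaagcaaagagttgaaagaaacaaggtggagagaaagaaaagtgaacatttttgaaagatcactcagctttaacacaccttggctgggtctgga
This window has a GC content of 40.7% and 1 CpG, while the median window of the collagen genes has 63.3% GC. TATAAA was searched on both strands and begins at base 45 from the 5′ end here. That is far upstream of the annotated start, which follows the first 250 bases, and use of the motif was not tested. It occurs in 11.5% of all 35116 windows of this length and in 8 of the 43 windows found for 31 collagen genes. The AP-1 motif TGANTCA was not found in these letters and occurs in 7.71% of all windows.

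In the basement membrane class, 3 of the 5 tested type IV chains were higher in KO, COL4A5 was lower and COL4A4 did not pass. COL4A2 measured 34.9 and 34.1 in KO1 and KO2 and 27.2 and 27.6 in WT1 and WT2. Its partner COL4A1 (both chromosome 13), with which it forms the common type IV trimer, measured 18.5 and 18.7 in KO and 15.6 and 14.4 in WT. The rises were of like size, with log2 fold changes of 0.33 (interval 0.22 to 0.45, adjusted p = 1.53e-05) and 0.31 (0.17 to 0.45, adjusted p = 0.000354). After the GC and length correction described below, COL4A2 was at 0.16 and COL4A1 at 0.25. The ratio of COL4A1 to COL4A2 was 0.530 and 0.549 in KO1 and KO2 and 0.576 and 0.520 in WT1 and WT2, so the groups overlapped.

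The X-linked chains COL4A5 and COL4A6, which combine in the basement membrane of skin and other epithelia, went in opposite directions. COL4A6 (ENSG00000197565) measured 13.2 and 15.2 in KO1 and KO2 and 9.90 and 9.07 in WT1 and WT2, a log2 fold change of 0.58 (interval 0.42 to 0.74, adjusted p = 2.81e-07). COL4A5 (ENSG00000188153) measured 7.82 and 8.81 in KO1 and KO2 and 10.0 and 10.6 in WT1 and WT2, a log2 fold change of -0.31 (interval -0.49 to -0.14, adjusted p = 0.00346). Neither gene overlapped between the groups. The fall of COL4A5 did not pass without KO1 (adjusted p = 0.0587) or without WT2 (adjusted p = 0.0567), and DESeq2 and limma still called it. The ratio of COL4A6 to COL4A5 was 1.69 and 1.72 in KO1 and KO2 and 0.988 and 0.854 in WT1 and WT2. The chain that was level with its partner in WT was thus the more abundant one in KO, although 2 libraries against 2 cannot give an exact two-sided permutation p below 0.333 for this ratio.

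Each of these gene pairs lies head to head, and the start-site windows of the members of a pair overlap. The RefSeq windows are shown for COL4A1, for COL4A6 and for COL4A5, since the chains of the first pair moved together and those of the second moved apart. Capitals mark the bases shared with the partner's window, which are 226 for COL4A1 with COL4A2 and 121 for COL4A6 with COL4A5.
COL4A1: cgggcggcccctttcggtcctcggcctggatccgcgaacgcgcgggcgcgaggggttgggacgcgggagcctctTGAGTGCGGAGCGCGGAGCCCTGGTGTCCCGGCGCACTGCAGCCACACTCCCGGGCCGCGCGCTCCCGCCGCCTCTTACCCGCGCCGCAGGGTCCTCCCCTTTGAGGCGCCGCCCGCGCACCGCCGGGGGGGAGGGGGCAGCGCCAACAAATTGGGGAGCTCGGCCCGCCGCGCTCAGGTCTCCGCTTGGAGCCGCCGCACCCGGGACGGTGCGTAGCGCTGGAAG
COL4A6: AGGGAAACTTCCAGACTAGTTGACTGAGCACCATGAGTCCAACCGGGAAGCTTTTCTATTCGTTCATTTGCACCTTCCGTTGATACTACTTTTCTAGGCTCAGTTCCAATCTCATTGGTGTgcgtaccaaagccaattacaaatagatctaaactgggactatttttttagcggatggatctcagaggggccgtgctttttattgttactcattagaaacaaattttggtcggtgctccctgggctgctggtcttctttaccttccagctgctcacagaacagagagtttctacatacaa
COL4A5: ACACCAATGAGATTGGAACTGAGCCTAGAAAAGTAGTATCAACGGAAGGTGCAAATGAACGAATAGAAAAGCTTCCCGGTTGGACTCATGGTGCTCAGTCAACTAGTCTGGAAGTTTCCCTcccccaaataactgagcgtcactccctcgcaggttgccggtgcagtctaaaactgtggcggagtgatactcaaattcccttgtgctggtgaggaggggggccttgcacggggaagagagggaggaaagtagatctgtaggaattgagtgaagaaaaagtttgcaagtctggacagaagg
On GRCh38.p14 the windows are chr13:110307108-110307407 on the minus strand for COL4A1, chrX:108439409-108439708 on the minus strand for COL4A6 and chrX:108439588-108439887 on the plus strand for COL4A5. The COL4A1 window holds 45 CpG at 76.7% GC, the COL4A6 window 7 CpG at 43.7% GC and the COL4A5 window 8 CpG at 49.3% GC. The motif GGGCGG, searched on both strands, occurs in the COL4A1 window and in 44.95% of all windows, and it was not found in the letters of the X-linked pair shown. CCAAT occurs in all 3 windows and in 34.6% of all windows. COL4A6 has a second annotated start whose window, also on the minus strand of chromosome X, does not take part in the shared stretch, and counts per gene do not tell the starts apart.

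**Figure D2:**
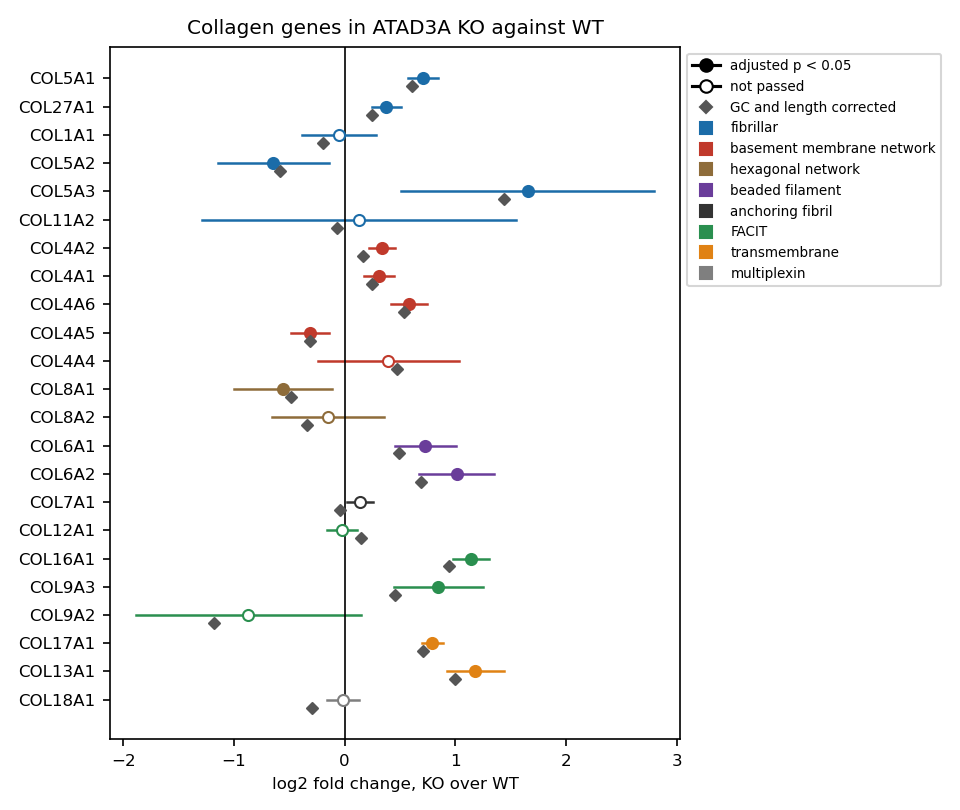
Log2 fold change (KO over WT) of the 23 tested collagen genes, grouped by class; circles and bars give the estimate and its 95% interval, filled circles passed an adjusted p of 0.05, and diamonds give the estimate after a correction for GC content and length. The filled circles to the right of 0 number 12 and those to the left number 3.

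Type VII collagen, a single chain encoded by COL7A1 on chromosome 3, did not pass the test. Its level was 23.2 and 24.1 in KO1 and KO2 and 21.0 and 21.96 in WT1 and WT2. The groups did not overlap, and the log2 fold change was 0.14 (interval 0.023 to 0.26, adjusted p = 0.0510). It passed when KO1 was left out (log2 fold change 0.17, adjusted p = 0.0205). It was 0.071 (adjusted p = 0.352) when libraries were scaled by their totals only, and turned to -0.039 (adjusted p = 0.591) after the correction for GC content and length described below.

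Among the fibrillar collagens, 3 of 6 tested genes rose, COL5A2 fell and COL1A1 and COL11A2 did not pass. COL5A1 (chromosome 9), the main chain of type V, which sits inside type I fibers and governs their diameter, measured 19.7 and 21.7 in KO1 and KO2 and 12.5 and 12.9 in WT1 and WT2. It was 1.63-fold higher (log2 fold change 0.71, interval 0.57 to 0.84, adjusted p = 3.94e-11). COL27A1 (chromosome 9), a fibrillar chain best known from cartilage, measured 18.4 and 17.6 in KO1 and KO2 and 13.5 and 14.3 in WT1 and WT2. Its rise was 1.30-fold (log2 fold change 0.38, interval 0.24 to 0.51, adjusted p = 1.46e-05), and both genes were separated between the groups.

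The other type V chains were much lower in level. COL5A3 (chromosome 19) had 32 and 32 counts in KO1 and KO2 and 8 and 9 in WT1 and WT2, which corresponds to 0.281 and 0.316 against 0.0837 and 0.105 TMM-scaled RPKM. It had the largest estimated change of the tested collagen genes, a log2 fold change of 1.65 with a wide interval of 0.51 to 2.80 (adjusted p = 0.0176). This call rests on few counts and was lost without KO2 (adjusted p = 0.0578), without WT1 (0.113) and without WT2 (0.0541), and with DESeq2 (0.0583). COL5A2 (chromosome 2) measured 0.671 and 0.526 in KO1 and KO2 and 0.966 and 0.910 in WT1 and WT2, a log2 fold change of -0.64 (interval -1.15 to -0.14, adjusted p = 0.0373). That call was lost without KO2 (adjusted p = 0.193), without WT1 (0.175), without WT2 (0.0878) and with DESeq2 (0.127), while the estimate kept its sign.

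Of the type I chains, which make up the bulk of connective tissue collagen, only COL1A1 was tested, and it did not pass. COL1A1 (chromosome 17) measured 1.69 and 2.07 in KO1 and KO2 and 2.17 and 1.70 in WT1 and WT2. The groups overlapped and the log2 fold change was -0.051 (interval -0.39 to 0.29, adjusted p = 0.843). COL1A2, its obligate partner in ordinary type I collagen, had between 0 and 2 counts in each library, and COL3A1, the type III chain, between 0 and 3.

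Both tested chains of type VI, which forms beaded filaments around cells, rose in KO. COL6A1 measured 5.15 and 5.57 in KO1 and KO2 and 3.21 and 3.24 in WT1 and WT2 (log2 fold change 0.73, interval 0.45 to 1.01, adjusted p = 4.50e-05). COL6A2, its neighbor on chromosome 21, measured 4.37 and 4.86 in KO1 and KO2 and 2.33 and 2.24 in WT1 and WT2 (log2 fold change 1.01, interval 0.67 to 1.35, adjusted p = 6.41e-06). The KO libraries stood apart from the WT libraries for both genes. COL6A3, the large chain of the usual type VI trimer, had 10 and 3 counts in KO1 and KO2 and 1 and 2 in WT1 and WT2, and COL6A6, which can take its place, had between 2 and 4 in each library.

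The FACIT class holds collagens that attach to the surface of fibrils, and 2 of its 4 tested genes rose. COL16A1 (chromosome 1), type XVI, measured 17.04 and 18.1 in KO1 and KO2 and 7.93 and 7.996 in WT1 and WT2. This was a 2.21-fold rise (log2 fold change 1.14, interval 0.98 to 1.30, adjusted p = 2.57e-14), and the replicates of each group lay close together. COL9A3 (chromosome 20), a type IX chain known from cartilage, measured 4.93 and 3.88 in KO1 and KO2 and 2.62 and 2.29 in WT1 and WT2 (log2 fold change 0.84, interval 0.44 to 1.24, adjusted p = 0.000744). After the correction for GC content and length, COL9A3 was at 0.45 and did not pass (adjusted p = 0.0728). COL12A1 (chromosome 6), type XII, measured 20.8 and 25.3 in KO1 and KO2 and 24.2 and 22.7 in WT1 and WT2, so that its WT values fell between the KO values. Its log2 fold change was -0.024 (interval -0.16 to 0.11, adjusted p = 0.811). The sign depended on the library left out, with -0.17 (adjusted p = 0.0173) without KO2, 0.11 without KO1 and 0.032 without WT1, and COL12A1 passed as higher after the GC and length correction (0.15, adjusted p = 0.0183). COL9A2 (chromosome 1) was lower in level and did not pass, with a log2 fold change of -0.87 (interval -1.88 to 0.14, adjusted p = 0.173).

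The remaining tested genes belong to the hexagonal networks and the multiplexins. COL8A1 (chromosome 3), a type VIII chain, measured 1.25 and 0.812 in KO1 and KO2 and 1.57 and 1.46 in WT1 and WT2, a log2 fold change of -0.55 (interval -0.997 to -0.11, adjusted p = 0.0414). The estimate rested on KO2, as it was -0.29 (adjusted p = 0.391) without that library and -0.90 without KO1. The call was also lost without WT1 (adjusted p = 0.179), without WT2 (0.0666) and with DESeq2 (0.152). COL8A2 (chromosome 1), which forms type VIII with COL8A1 or alone, measured 0.999 and 1.08 in KO1 and KO2 and 1.09 and 1.22 in WT1 and WT2 (log2 fold change -0.15, interval -0.66 to 0.36, adjusted p = 0.685). COL18A1 (chromosome 21), the basement membrane collagen from which endostatin is cut, measured 13.5 and 13.8 in KO1 and KO2 and 13.5 and 14.1 in WT1 and WT2. Its log2 fold change of -0.016 (interval -0.16 to 0.13, adjusted p = 0.892) was the smallest of the tested collagen genes.

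The 19 collagen genes that were not tested had a mean level of at most 0.0966 TMM-scaled RPKM, and 9 of them had at least 10 counts over the 4 libraries. COL11A1, a fibrillar chain, had 2 and 1 counts in KO1 and KO2 and 8 and 5 in WT1 and WT2. COL10A1, the hypertrophic cartilage chain, had 0 and 1 counts in KO1 and KO2 and 5 and 6 in WT1 and WT2. COL6A3, given above, had its higher counts in KO. The groups did not overlap for COL11A1, COL10A1 and COL6A3, but counts this low allow no statement of a change.

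For the other untested genes with at least 10 counts, the KO and WT libraries overlapped. COL4A3, which joins COL4A4 and COL4A5 in the kidney and lung network, had 5 and 19 counts in KO1 and KO2 and 8 and 7 in WT1 and WT2. COL21A1 had 0 and 7 counts in KO and 6 and 12 in WT. COL19A1 had between 6 and 11 counts in each library, and COL24A1 had between 1 and 5. All 11 counts of COL28A1 came from WT1. Under 10 counts in all were found for COL26A1, COL3A1, COL1A2, COL25A1, COL20A1, COL9A1, COL2A1, COL22A1, COL15A1 and COL14A1, with at most 4 in a library. A count of 0 allows up to 3 counts, or 0.158 to 0.221 CPM in these libraries. COL6A5 and COL23A1 were not analysed here.

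**Figure D3:**
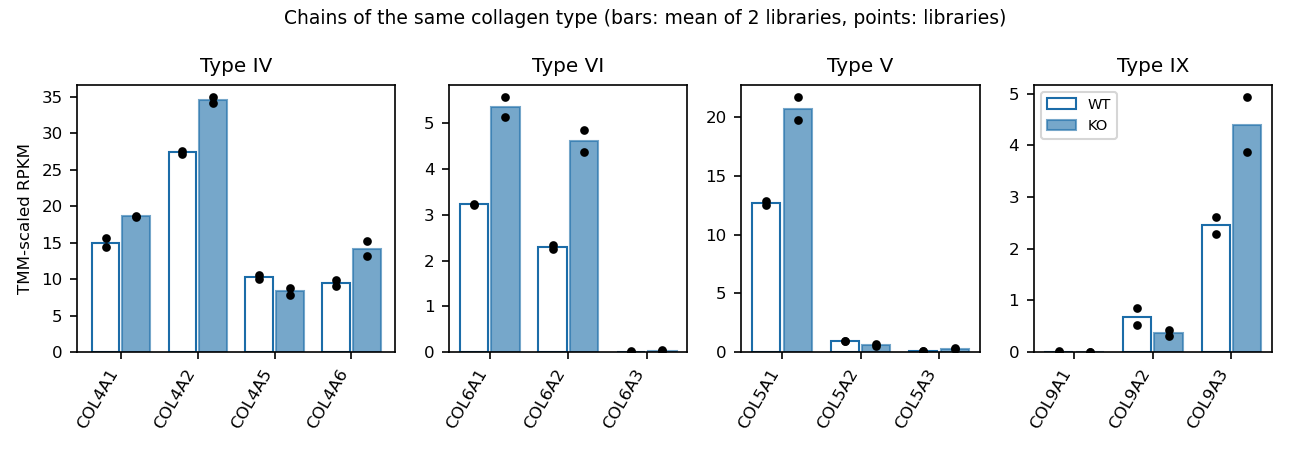
TMM-scaled RPKM of chains of the same collagen type, with bars for the mean of 2 libraries, points for the libraries, open bars for WT and filled bars for KO. COL4A1 and COL4A2 rose side by side, COL4A5 and COL4A6 crossed, and COL6A3 and COL9A1 stayed near 0.

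Chains that are built into the same molecule were close in level in some types and far apart in others. COL5A2, which pairs with COL5A1 in the usual type V trimer, stood at 0.0341 and 0.0243 of the COL5A1 level in KO1 and KO2 and at 0.0775 and 0.0707 in WT1 and WT2. COL5A1 was therefore in large excess in every library, and the ratio did not overlap between the groups. COL6A1 exceeded COL6A2 by 1.18 and 1.15 times in KO1 and KO2 and by 1.38 and 1.44 times in WT1 and WT2. This ratio did not overlap between the groups, but a change in it was not tested. The intervals of the log2 fold changes of COL6A1 (0.45 to 1.01) and COL6A2 (0.67 to 1.35) overlapped. After the GC and length correction described below, the estimates were 0.49 and 0.69. COL9A2 stood at 0.0876 and 0.0817 of COL9A3 in KO1 and KO2 and at 0.324 and 0.229 in WT1 and WT2, with 1 count of COL9A1 in the 4 libraries together. These ratios rest on 23 and 15 counts of COL9A2 in KO1 and KO2 and 38 and 21 in WT1 and WT2. COL4A4 was far below COL4A5, at 0.0441 and 0.0517 of its level in KO1 and KO2 and 0.0267 and 0.0322 in WT1 and WT2 (log2 fold change of COL4A4 0.40, adjusted p = 0.346). COL11A2 had 13 and 16 counts in KO1 and KO2 and 2 and 20 in WT1 and WT2, where COL2A1, with which it forms type XI, had 1 count in all.

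GC content of the transcripts moved with the fold changes over all genes and was high among the collagen genes. The median GC content was 61.3% over the 23 tested collagen genes and 48.2% over all genes tested, and the median lengths were 6425 and 3138 bases. Of the genes with at least 55% GC, 37.2% were called higher and 6.99% lower, and 11 of the 17 collagen genes in that range were higher and the other 6 did not pass. Of the genes between 45% and 55% GC, 20.3% were higher and 15.6% lower, and the 6 collagen genes there gave 1 higher (COL4A6), 3 lower (COL4A5, COL8A1 and COL5A2) and 2 that did not pass. The 11 of 17 therefore stand beside 37.2% of genes of like GC content rather than beside the 20.4% of all genes.

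When GC content and length were corrected for in each library, 12 collagen genes were again higher, 11 of them shared with the uncorrected test, and 2 were lower, where 17.2% and 17.1% of all genes were called. The median log2 fold change of the collagen genes tested was then 0.25. COL9A3 left the higher group and COL12A1 joined it, with the values given above. COL18A1 passed as lower (-0.30, adjusted p = 0.000387) beside COL4A5 (-0.31, adjusted p = 0.00182), whereas COL8A1 (adjusted p = 0.0839) and COL5A2 (0.0688) did not pass. All 11 genes higher in both tests had smaller estimates after the correction. COL5A3 was at 1.44, COL13A1 at 0.997, COL16A1 at 0.94, COL17A1 at 0.71, COL6A2 at 0.69 and COL5A1 at 0.61. COL4A6 was at 0.53, COL6A1 at 0.49, COL4A1 at 0.25, COL27A1 at 0.25 and COL4A2 at 0.16. Of the genes with at least a 2-fold rise before the correction, COL5A3, with its few counts, alone kept one.

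**Figure D4:**
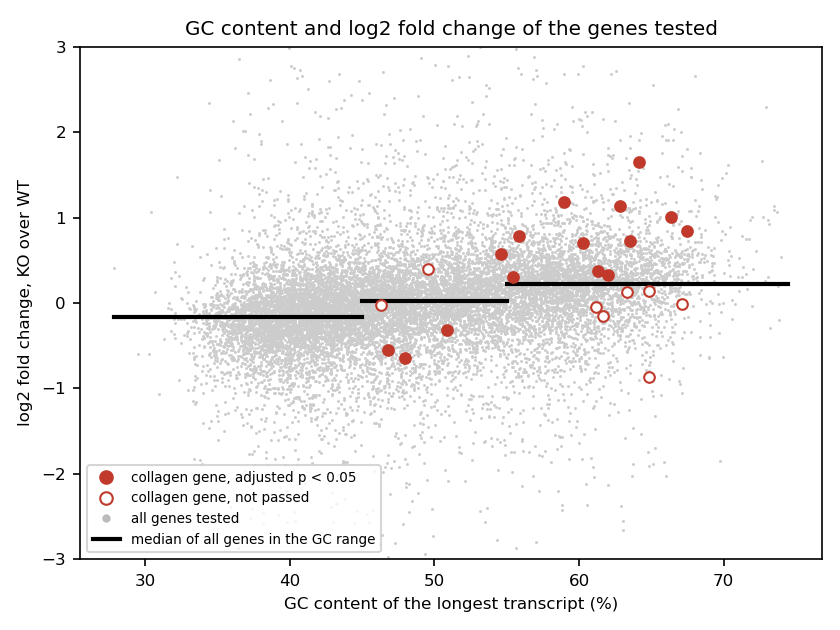
GC content of the longest transcript (%) against the log2 fold change (KO over WT), with grey points for all tested genes, red points for collagen genes (filled where the adjusted p was under 0.05) and black lines for the median of all genes in 3 GC ranges; 80 genes beyond 3 log2 units are not drawn. The medians rise from -0.17 below 45% GC to 0.23 from 55% GC upward, and 17 of the 23 collagen genes lie in the upper range.

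The genes that make, finish and bind collagen went in both directions. Of 40 such genes, 39 were listed and 34 were tested, and 11 were higher and 9 lower in KO, against 20.4% and 19.1% of all genes. After the GC and length correction 8 were higher and 8 lower, against 17.2% and 17.1% of all genes. ADAMTS2 was not analysed here. Among the 14 tested enzymes and helpers of prolyl and lysyl modification, 6 were higher and 3 lower. P3H2, a prolyl 3-hydroxylase that acts on type IV collagen and is listed as LEPREL1, measured 35.99 and 34.5 in KO1 and KO2 and 12.7 and 12.7 in WT1 and WT2 (log2 fold change 1.47, interval 1.32 to 1.63, adjusted p = 6.68e-18). PLOD2, which hydroxylates lysines in the collagen telopeptides, went the other way, with 13.3 and 14.3 in KO1 and KO2 and 39.0 and 37.1 in WT1 and WT2 (log2 fold change -1.46, interval -1.61 to -1.32, adjusted p = 2.08e-18). P4HA1, a catalytic subunit of prolyl 4-hydroxylase, was also lower, with 15.8 and 16.2 in KO1 and KO2 and 34.5 and 36.3 in WT1 and WT2 (log2 fold change -1.15, interval -1.30 to -0.99, adjusted p = 1.52e-14). For each of these 3 enzymes the KO and WT libraries did not overlap.

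P4HB, the beta subunit of the same prolyl 4-hydroxylase, was higher at 217 and 211 in KO1 and KO2 against 175 and 160 in WT1 and WT2 (log2 fold change 0.35, adjusted p = 1.72e-06). Its log2 fold change fell to 0.15 (adjusted p = 0.00690) after the GC and length correction. PPIB, a prolyl isomerase of the same compartment, was higher with a log2 fold change of 0.28 (adjusted p = 0.00157), which fell to 0.042 (adjusted p = 0.666) after the GC and length correction and did not pass without WT1 (adjusted p = 0.0926). The correction changed this role to 3 higher and 5 lower. The remaining lower member before correction was P3H3, listed as LEPREL2 and named here after its value was seen (log2 fold change -0.41, adjusted p = 0.0461). Its call was lost with DESeq2 (adjusted p = 0.154), without KO1 (0.256), without WT1 (0.114) and without WT2 (0.164), and it passed after the correction (log2 fold change -0.65, adjusted p = 0.00215).

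Folding and export gave 1 higher and 3 lower of 5 tested genes, and none of these 4 calls held after the GC and length correction. SERPINH1, the collagen chaperone HSP47, measured 63.6 and 65.9 in KO1 and KO2 and 64.1 and 61.1 in WT1 and WT2 (log2 fold change 0.049, interval -0.069 to 0.17, adjusted p = 0.550), and its sign turned when libraries were scaled by their totals only. FKBP10, a prolyl isomerase, was higher (log2 fold change 0.30, adjusted p = 0.000132). FKBP14, MIA3 and SEC23A, named after their values were seen, were lower with log2 fold changes of -0.20, -0.28 and -0.25. All 3 calls were lost without WT1 (adjusted p = 0.315, 0.0780 and 0.0884), and that of FKBP14 also without KO1 (0.0659), KO2 (0.128) or WT2 (0.106) and with DESeq2 (0.126). MIA3 and SEC23A serve the export of bulky cargo from the endoplasmic reticulum.

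Of the 6 tested genes of propeptide removal, 3 were higher and 1 lower. TLL2, a protease of the BMP1 family, measured 1.31 and 1.37 in KO1 and KO2 and 0.382 and 0.638 in WT1 and WT2 (log2 fold change 1.40, interval 0.91 to 1.90, adjusted p = 1.43e-05). BMP1, the main procollagen C-proteinase, was higher at 14.7 and 14.3 against 10.9 and 10.3 (log2 fold change 0.45, adjusted p = 5.66e-05). PCOLCE2, an enhancer of that protease, was higher with a log2 fold change of 0.75 (adjusted p = 0.00377), a call that was lost without KO1 (adjusted p = 0.0782). PCOLCE, named after its value was seen, was lower (log2 fold change -0.75, adjusted p = 0.0476). That call was lost with DESeq2 (adjusted p = 0.149), without KO1 (0.321), without WT1 (0.276) and without WT2 (0.0657).

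In the crosslinking family, LOXL2, an oxidase that acts on type IV collagen, was lower and the other 3 tested genes did not pass. LOXL2 measured 24.0 and 25.2 in KO1 and KO2 and 42.8 and 43.1 in WT1 and WT2 (log2 fold change -0.80, interval -0.94 to -0.67, adjusted p = 2.00e-12). LOXL3 overlapped between the groups (log2 fold change -0.12, adjusted p = 0.688). Among the 5 tested collagen receptors, ITGA2 was higher, DDR1 was lower and 3 did not pass. ITGA2, the integrin alpha-2 chain, named after its value was seen, measured 81.3 and 95.5 in KO1 and KO2 and 46.0 and 43.7 in WT1 and WT2 (log2 fold change 0.98, interval 0.86 to 1.10, adjusted p = 5.76e-16). Its partner ITGB1 measured 157 and 164 in KO1 and KO2 and 160 and 161 in WT1 and WT2, with a log2 fold change of 0.00052 (interval -0.10 to 0.10, adjusted p = 0.995) that became 0.19 (adjusted p = 0.000365) after the GC and length correction. DDR1, a receptor tyrosine kinase for collagen, was lower at 108 and 108 against 124 and 131 (log2 fold change -0.24, adjusted p = 0.000323). Its log2 fold change was -0.44 after the GC and length correction.

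**Figure D5:**
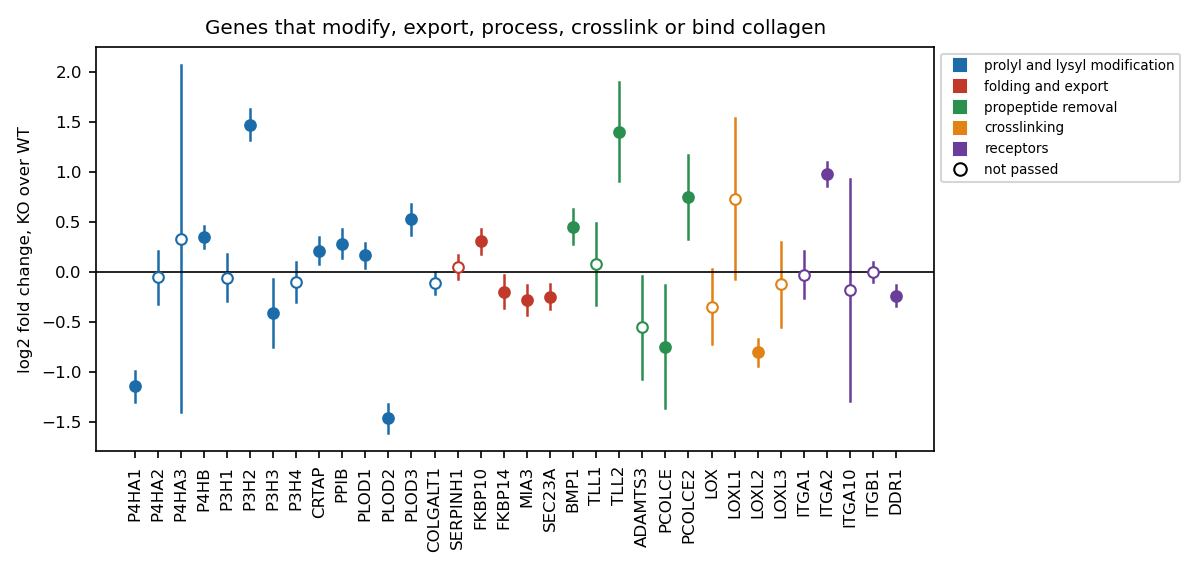
Log2 fold change (KO over WT) of the 34 tested genes that modify, export, process, crosslink or bind collagen, as estimates with 95% intervals, colored by role and filled where the adjusted p was under 0.05. P3H2 and TLL2 are the highest filled points at 1.47 and 1.40, and PLOD2 and P4HA1 the lowest at -1.46 and -1.15.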

How the data were processed

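RNA-seq libraries of HN12 cells were grouped by their labels as KO1, KO2, WT1 and WT2. The authors deposited read counts per gene under Ensembl identifiers, unnormalized, and RPKM made by the authors from the same counts. The unit of the latter was read off the values, since dividing each by its count implies 1 length per gene, with a spread of at most 1.82e-05% between libraries. The submitters' processing notes name the build hg19 and the tools CASAVA, STAR 2.5, HTSeq, edgeR 3.16.5 and DESeq2 2, with no order or role. Use of strand in counting is not given in the sources used here, so reads of a collagen gene and an antisense gene cannot be told apart. Reads were 50 nt long, and the paper's methods name a DESeq test.

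From the counts, genes kept by filterByExpr on the groups (15104) were tested with edgeR 4.0.16 (R 4.3.3), using TMM factors of 0.975 to 1.03, glmQLFit and glmQLFTest with no replicate term, and Benjamini-Hochberg adjustment over all of them at 0.05. Standard errors were taken as the log2 fold change over the root of F, and intervals are 95%. Levels are TMM-scaled CPM per kilobase of the length implied by the deposited RPKM. GC content was taken from GENCODE release 29 (GRCh38) by identifier and covered 97.2% of the tested genes, and only names, chromosomes and GC content were used from it. The correction fitted splines with 4 degrees of freedom for GC content and length to each library. Start-site windows are from RefSeq on GRCh38.p14 and were not joined to positions in the files, which hold none.

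Collagen genes with an adjusted p under 0.05 and the 5 of highest level that did not pass are given per library, partner chains side by side, and untested genes with at least 10 counts by their counts. Of the making and receptor genes, those called with a log2 fold change of at least 1 and the 2 of highest level in each role are named. The collagen genes, classes and other lists were chosen with earlier results of these data known. The edgeR and DESeq2 tests were also run on simulated counts with known changes, as a check of the code. Alternatives were no filter, 10 counts in every library, library totals, DESeq2 size factors, DESeq2 1.42.0, edgeR's exact test, a replicate block, limma 3.58.1 on log2(RPKM + 1) and log2(RPKM + 0.1), the GC and length correction, and leaving out each library, where a lone library was assumed to vary like the other group. With 2 libraries per group, precision is limited, most of all for genes of low counts. The biological coefficient of variation, estimated over all tested genes together, was 5.88%. As the KO clone or clones are not given, the intervals and p-values may hold no spread between clones, whatever the counts of a gene.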

Additional observations from a re-analysis of the deposited data

How the results depend on the processing

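Across 14 alternatives, the collagen genes called higher numbered 11 to 13, and 10 of the 15 called genes were called in every alternative that gave a value. The exceptions were COL4A5, COL9A3, COL8A1, COL5A2 and COL5A3, and 0 of the 15 changed sign. The limma fits used the RPKM as deposited, which are scaled by library totals without TMM factors, and so share that scaling with the fit on library totals. The cause of the shifts below was not tested.

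The collagen genes called lower fell from 3 to 1 with DESeq2 and with limma on log2(RPKM + 1) and log2(RPKM + 0.1), and ranged from 0 to 2 when a library was left out. Lower calls among fibrillar and hexagonal network genes went from 1 to 0 with DESeq2, with both limma fits and with the GC and length correction, and ranged from 0 to 1 when a library was left out, as did those of the basement membrane network. The correction also gave 1 lower multiplexin, 3 higher and 5 lower modification genes, 0 higher and 0 lower folding and export genes and 2 higher receptors. Anchoring fibril genes higher became 1 with at least 10 counts in every library and ranged from 0 to 1 without a library, and FACIT genes lower ranged from 0 to 1. Lower propeptide removal genes were 0 with DESeq2 and 2 with library totals only, and 0 to 1 without a library. Lower making and receptor genes ranged from 4 to 8 without a library, and lower folding and export genes from 0 to 2.

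The median log2 fold change of the collagen genes tested was 0.33. It became 0.26 with library totals only, 0.23 with limma on log2(RPKM + 1) and 0.25 with limma on log2(RPKM + 0.1). After the GC and length correction it was 0.25, and with the replicate block 0.38. It ranged from 0.30 to 0.42 when a library was left out. The value of 0.23 with no filter is over all 42 collagen genes, including the 19 that were otherwise not tested.

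Signs turned for genes near 0. With the GC and length correction COL12A1 was 0.15, COL7A1 -0.039, COL11A2 -0.067, SERPINH1 -0.087 and FKBP14 0.031. Library totals only gave SERPINH1 -0.021 and ITGB1 -0.069, and limma gave SERPINH1 -0.020 and ITGB1 -0.069 with both pseudocounts. ITGB1 was -0.0018 with DESeq2 and -0.0017 with its size factors. Over the 4 fits that each left out 1 library, log2 fold changes ranged from -0.17 to 0.11 for COL12A1, -0.039 to 0.016 for COL18A1, -0.21 to 0.15 for COL1A1, -0.77 to 2.63 for COL11A2, -0.35 to 0.17 for LOXL3 and -0.030 to 0.031 for ITGB1.

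The replicate numbers are only names. Deviations of same-numbered libraries from their group means correlated at -0.057 over 11224 genes, and with 2 pairs this does not show pairing. A replicate block left 12 collagen genes higher and 3 lower, 8 making and receptor genes lower in place of 9, and 3010 of all genes higher and 2810 lower.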

Other observations

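Antisense genes named after collagen genes were counted at low levels. COL18A1-AS1 had 1 and 2 counts in KO1 and KO2 and 6 and 9 in WT1 and WT2, and COL18A1-AS2 had 0 and 1 against 5 and 4. COL4A2-AS1 had 8 and 6 counts in KO1 and KO2 and 3 and 1 in WT1 and WT2, and COL4A2-AS2 had 7 and 6 against 3 and 2. COL5A1-AS1 had 4 and 2 counts in KO1 and KO2 and 0 in both WT libraries. None of them had enough counts to be tested, and all lie far below the 1296 or more counts per library of COL18A1, COL4A2 and COL5A1. COL6A4P1, a pseudogene of a type VI chain, had between 0 and 4 counts in each library.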
